A study of Homo sapiens with 12 samples.

Results

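The beta subunits of heterotrimeric G proteins are encoded in human cells by 5 genes, GNB1, GNB2, GNB3, GNB4 and GNB5. All 5 were found by symbol among the 60662 genes of the RNA count files, and all 5 are in the translational efficiency table of 12224 genes. GNB1 (ENSG00000078369.18) lies on chromosome 1, GNB2 (ENSG00000172354.10) on chromosome 7, GNB3 (ENSG00000111664.10) on chromosome 12, GNB4 (ENSG00000114450.10) on chromosome 3 and GNB5 (ENSG00000069966.18) on chromosome 15. GNB3 was chosen by its RNA counts in this experiment, both for its difference between the treatments and for its difference between replicates, so its RNA is described here without a test. The other 4 genes were taken because they belong to the same family.

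The cells were wild-type HEK293T, an established human embryonic kidney line. One arm received 20 µM STM2457, an inhibitor of METTL3, which is the catalytic subunit of the m6A methyltransferase of messenger RNA, in 0.2% DMSO for 6 h. The control arm received 0.2% DMSO for 6 h. All cells were given extra serum shortly before lysis and then cycloheximide, which halts elongating ribosomes. RNA-seq was carried out on 4 libraries per arm and ribosome profiling (Ribo-seq), which sequences the stretches of RNA that ribosomes protect, on 2 libraries per arm. The study asked how RNA and translation differ when m6A is depleted. The labels do not say that replicates came from separate cultures, so p-values reflect library-to-library spread alone, which could be technical.

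A G protein beta subunit is a propeller of WD repeats that binds a gamma subunit for life, and the dimer holds a GDP-bound alpha subunit at the membrane. An activated receptor exchanges the nucleotide on the alpha subunit, after which alpha and the beta-gamma dimer each act on effectors such as adenylyl cyclases, phospholipase C beta and inwardly rectifying potassium channels. GNB1 and GNB2 are expressed in most tissues, GNB3 is the beta subunit of cone photoreceptors, and GNB5 is the divergent member that pairs with RGS proteins of the R7 family in place of a gamma subunit.

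RNA-seq libraries held 43291730 to 51645739 counts, and 3198063 to 4711513 footprint reads were recovered per Ribo-seq library. All 5 HEK293T marker genes passed the expression filter, with summed levels of 614.9 to 667.5 CPM, which are counts scaled to the library's size, in STM2457 libraries and 557.5 to 599.7 CPM in DMSO libraries. The 9 cone photoreceptor markers summed to 0.329 to 0.450 CPM with STM2457 and to 0.324 to 0.501 CPM with DMSO, and 3 of them were at 0 in every library. The 4 blood markers summed to 0.715 to 0.893 CPM with STM2457 and 0.656 to 0.971 CPM with DMSO. The 4 fibroblast markers summed to 16.2 to 17.5 CPM with STM2457 and 15.6 to 19.3 CPM with DMSO, nearly all of it COL1A1. Spike-in RNA took 0.415% to 0.466% of the counts with STM2457 and 0.389% to 0.408% with DMSO. The first principal component of RNA, with 61.6% of the variance, separated the arms, and the second, with 12.1%, separated replicates 1 and 2 from replicates 3 and 4 in both arms. The labels name no batch.

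GNB3 RNA was about 4 times as high with STM2457, while GNB1 and GNB2 RNA fell slightly and GNB4 and GNB5 RNA did not pass the test. GNB3 had 17.2, 16.8, 33.0 and 27.0 CPM in STM2457 replicates 1 to 4, against 4.16, 4.55, 7.09 and 6.94 CPM in DMSO replicates 1 to 4. The arms did not overlap, and in each arm replicates 3 and 4 were higher than replicates 1 and 2. These levels rest on 848, 797, 1406 and 1257 counts in the STM2457 libraries and on 218, 227, 335 and 357 counts in the DMSO libraries. The mean was 23.5 ± 7.92 CPM with STM2457 and 5.68 ± 1.55 CPM with DMSO (SD, n = 4 each), a log2 fold change of 2.05 (SE 0.23). The ratio of STM2457 to DMSO libraries of the same number was 4.14, 3.68, 4.66 and 3.89. Of the 17807 genes tested, 20 had a larger log2 fold change than GNB3, and 0.135% reached a log2 fold change of 2. GNB3 was chosen partly for this change, so its place among all genes is a description and not evidence. The arms did not overlap in 44.7% of all tested genes. RNA per cell and the number of cells that make it cannot be told apart in these bulk libraries.

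**Figure D1:**
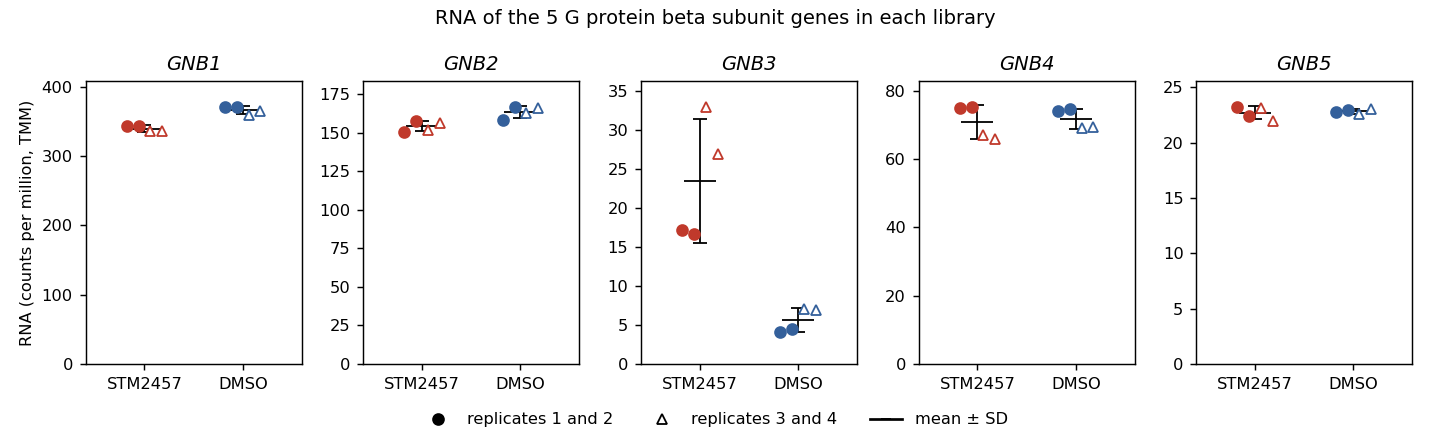
RNA level of each G protein beta subunit gene in CPM (TMM scaling, vertical axis from 0, one scale per gene) in the 4 STM2457 and 4 DMSO libraries. Filled circles are replicates 1 and 2, open triangles are replicates 3 and 4, and black lines give the mean ± SD; GNB3 sits between 16.8 and 33.0 CPM with STM2457 and between 4.16 and 7.09 CPM with DMSO.

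Both of the broadly expressed beta subunit genes were slightly lower with STM2457. GNB1 had 343.3, 343.4, 335.5 and 335.8 CPM in STM2457 libraries, against 370.1, 370.9, 359.7 and 364.6 CPM in DMSO libraries. Every STM2457 library was below every DMSO library. The mean was 339.5 ± 4.44 CPM with STM2457 and 366.3 ± 5.23 CPM with DMSO (SD, n = 4 each), and the log2 fold change of -0.11 (SE 0.02) passed edgeR's quasi-likelihood test with Benjamini-Hochberg adjustment (adjusted p = 0.000923). GNB2 had 150.8, 157.8, 152.0 and 156.4 CPM in STM2457 libraries, against 158.3, 166.9, 162.6 and 166.1 CPM in DMSO libraries. The arms of GNB2 did not overlap either, although the highest STM2457 library and the lowest DMSO library nearly met. Its log2 fold change was -0.08 (SE 0.03, edgeR adjusted p = 0.0191). The GNB2 call was lost without DMSO replicate 2 (edgeR adjusted p = 0.0560), without DMSO replicate 4 (0.0517) and without STM2457 replicate 1 (0.0615), with log2 fold changes of -0.07, -0.08 and -0.07. Thus 2 of the 4 tested beta subunit genes passed, both as lower, where 47.8% of all tested genes passed, 21.6% as lower and 26.2% as higher.

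GNB4, a close relative of GNB1 and GNB2, had 75.1, 75.3, 67.2 and 66.0 CPM with STM2457, against 74.1, 74.6, 69.0 and 69.5 CPM with DMSO. The arms overlapped, and in both of them replicates 1 and 2 were the higher ones. Its log2 fold change was -0.02 with an approximate 95% interval of -0.11 to 0.08 (edgeR adjusted p = 0.792). Intervals of edgeR log2 fold changes were taken from the SE with a normal approximation, which makes them somewhat narrow with so few libraries. GNB5 had 23.2, 22.5, 23.1 and 22.0 CPM with STM2457, against 22.8, 22.9, 22.6 and 23.1 CPM with DMSO. All 8 libraries lay within a narrow band and the arms overlapped. Its log2 fold change was -0.01 with an approximate 95% interval of -0.08 to 0.06 (edgeR adjusted p = 0.879).

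These fold changes are relative to TMM scaling, under which the median log2 fold change of all genes was 0.0025. When libraries were scaled by their ERCC spike-in counts, the median gene moved to -0.19, and 2159 genes were higher and 8383 lower, against 4669 higher and 3842 lower with TMM. Under spike-in scaling GNB3 had a log2 fold change of 1.86, GNB1 of -0.31, GNB2 of -0.28, GNB4 of -0.21 (edgeR adjusted p = 0.00379) and GNB5 of -0.20 (edgeR adjusted p = 0.0110). Taken from the median gene, these were 2.05, -0.11, -0.09, -0.02 and -0.01. GNB4 and GNB5 therefore passed the test as lower with spike-in scaling and did not with TMM. The change of scaling shifts all genes by nearly the same amount, so their place relative to the median gene stays nearly the same by construction.

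**Figure D2:**
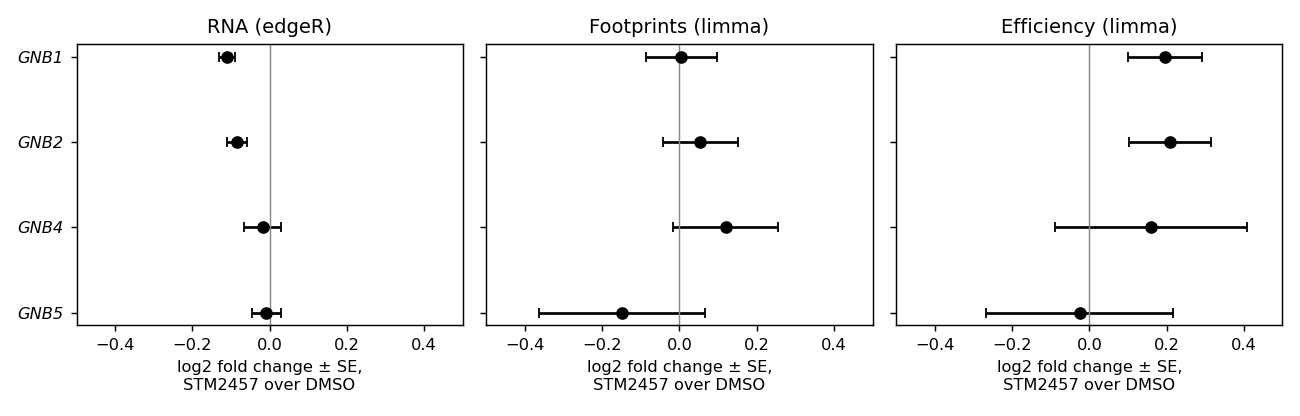
Log2 fold change (STM2457 over DMSO, horizontal axis) of RNA, footprints and efficiency for the 4 beta subunit genes that entered all 3 fits, with bars of 1 SE. The RNA of GNB1 and GNB2 lies left of 0 at -0.11 and -0.08, and the footprint and efficiency bars of all 4 genes are wider than their RNA bars.

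The difference between the replicate sets ran through both arms for GNB3 and in the other direction for GNB4. The mean of GNB3 in replicates 3 and 4 was 1.77 times that of replicates 1 and 2 with STM2457 and 1.61 times with DMSO. The ratio of STM2457 to DMSO was 4.28 in replicates 3 and 4 and 3.90 in replicates 1 and 2. The log2 fold change of GNB3 was larger in replicates 3 and 4 by 0.13 (SE 0.15), and the level difference over both arms was 0.78 (SE 0.07) on the log2 scale. Of 17807 tested genes, 134 had a larger level difference between the sets, 3 and 4 over 1 and 2. GNB3 was chosen partly for its difference between replicates, so this rank is a description and not evidence. GNB4 was at 0.885 times in replicates 3 and 4 with STM2457 and at 0.932 times with DMSO. Its level difference of -0.14 (SE 0.03) passed the test (edgeR adjusted p = 0.00296), as did 9.27% of all tested genes, 3.46% in that direction and 5.81% in the other. The GNB4 call was lost with spike-in scaling, where the difference was -0.15 (edgeR adjusted p = 0.0858). GNB1, GNB2 and GNB5 differed between the sets by -0.03, 0.01 and -0.01, with edgeR adjusted p of 0.322, 0.910 and 0.924. What separates the sets was not tested.

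The effect of STM2457 on the RNA of the other 4 beta subunit genes was also compared between the sets. The log2 fold change in replicates 3 and 4 minus that in replicates 1 and 2 was 0.000089 for GNB1, -0.02 for GNB2, -0.07 for GNB4 and -0.02 for GNB5. None of the 4 differences passed edgeR's quasi-likelihood test (adjusted p = 0.9996 for each). Of all 17807 genes 0% passed it, with 411 genes at an unadjusted p under 0.05, and the same comparison with DESeq2 called 2 genes. The approximate 95% intervals, from the same normal approximation, ran from -0.08 to 0.08 for GNB1 and from -0.12 to 0.09 for GNB2. They ran from -0.18 to 0.03 for GNB4 and from -0.17 to 0.13 for GNB5.

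**Figure D3:**
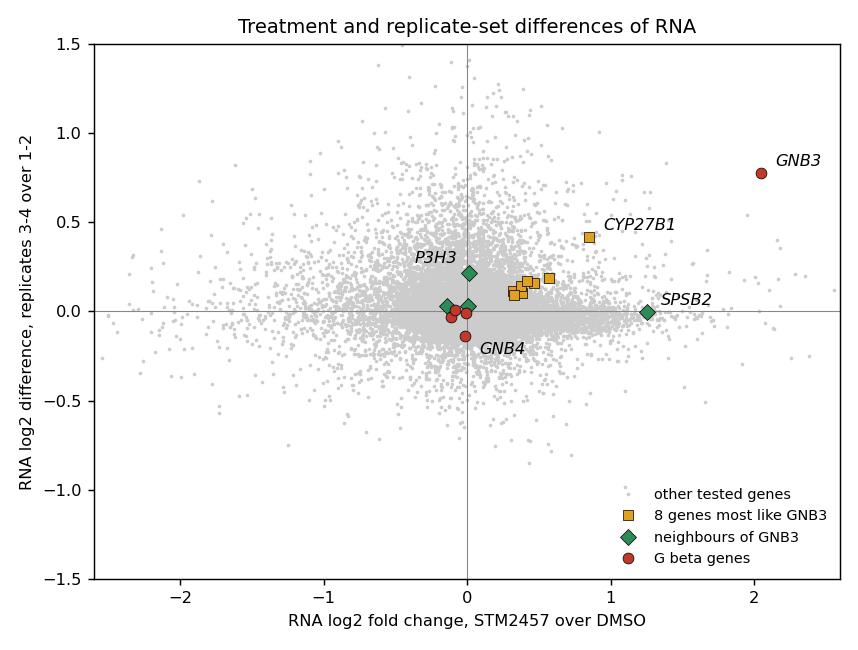
Log2 fold change of RNA between STM2457 and DMSO (horizontal axis) against the log2 level difference between replicates 3 and 4 and replicates 1 and 2 over both arms (vertical axis) for 17807 tested genes, of which 29 lie outside the axes. Red circles are the beta subunit genes, orange squares the 8 genes whose profile is most like that of GNB3, and green diamonds the neighbours P3H3, CDCA3, USP5 and SPSB2; GNB3 stands at 2.05 and 0.78, apart from the other 4 beta subunit genes.

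The genes whose log2 CPM followed GNB3 most closely over the 8 RNA-seq libraries, among 13454 genes with a symbol and a mean of at least 1 CPM, were SAT1, SON, GON4L, CYP27B1, SNAPC4, LINC01569, DCAF4 and IGHMBP2. Pearson's r ranged from 0.991 for IGHMBP2 to 0.997 for SAT1. The 8 points of each gene fall into the 2 arms and the replicate sets, so r describes that shared layout and carries no test. SAT1, which encodes a polyamine acetyltransferase, had 34.0, 34.9, 39.3 and 38.5 CPM with STM2457, against 25.8, 26.1, 29.4 and 28.6 CPM with DMSO. CYP27B1, the enzyme that makes the active form of vitamin D, had 10.9, 11.1, 15.9 and 14.1 CPM with STM2457, against 6.31, 6.21, 8.40 and 7.93 CPM with DMSO. In both genes, as in GNB3, STM2457 libraries were above all DMSO libraries and replicates 3 and 4 above replicates 1 and 2 within each arm. Both genes were picked for their likeness to GNB3, so this shared layout follows from the choice. The log2 fold changes of the 8 genes ran from 0.32 for IGHMBP2 and SON to 0.85 for CYP27B1, and all were smaller than that of GNB3. Their level differences between the replicate sets ran from 0.09 for SON to 0.42 for CYP27B1.

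Footprints of 4 of the beta subunit genes were abundant enough to be tested, and those of GNB3 were not. GNB3 had 5 and 2 footprint reads in the STM2457 libraries, against 3 and 1 reads in the DMSO libraries. The sum of 7 reads with STM2457 has an exact 95% Poisson interval of 2.81 to 14.4, and the sum of 4 reads with DMSO one of 1.09 to 10.2, both for counting error only. The ratio of the sums, scaled for depth, was 1.75 with an exact 95% interval of 0.444 to 8.13. This interval holds 1 and also holds each of the 4 RNA ratios of GNB3, so neither a change of footprints nor a difference from the RNA was detectable at this depth. GNB3 was below the filter of a mean of 10 reads per library and did not enter the footprint and efficiency fits.

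GNB1 had footprint signals of 4683 and 4982 with STM2457, against 5027 and 4608 with DMSO. These rest on 1233 and 1276 reads with STM2457 and 1562 and 956 reads with DMSO, and the arms overlapped. The log2 fold change of GNB1 footprints was 0.01 (SE 0.09, limma adjusted p = 0.981). GNB2 had footprint signals of 3449 and 4049 with STM2457, against 3676 and 3523 with DMSO, which also overlapped, and a log2 fold change of 0.05 (SE 0.10, limma adjusted p = 0.782). GNB4 had 968.5 and 1015 with STM2457, against 923.7 and 901.3 with DMSO. The log2 fold change of GNB4 footprints was 0.12 (SE 0.14, limma adjusted p = 0.630). GNB5 had 303.8 and 296.7 with STM2457, against 389.4 and 284.4 with DMSO, and DMSO replicate 1 alone stood above the other libraries. The log2 fold change of GNB5 footprints was -0.15 (SE 0.21, limma adjusted p = 0.723). None of the 4 genes passed the footprint test, which 15.7% of the 10906 genes tested did.

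Translational efficiency is the footprint signal divided by the RNA signal of the same table. For the ratios given here, footprints were averaged over 2 libraries per arm and RNA over 4. GNB3 RNA was higher in replicates 3 and 4, which have no Ribo-seq libraries of the same number. GNB3 had an efficiency of 0.0497 with STM2457 and of 0.101 with DMSO, where the median of all 12224 genes was 1.00 with STM2457 and 1.01 with DMSO. The efficiency was lower than that of GNB3 in 39 genes with STM2457 and in 117 genes with DMSO. Among 1713 genes whose RNA signal, averaged over all 8 RNA-seq libraries, was within 1.5-fold of that of GNB3, 8 had a lower efficiency with STM2457 and 19 with DMSO. The mean RNA signal of GNB3 was 269.6 with STM2457 and 71.5 with DMSO. Both lie outside that 1.5-fold range, so these genes were not matched to GNB3 within either arm. GNB3 was chosen by its RNA, and RNA is the divisor here, so its places among these genes are descriptions and not evidence. The GNB3 ratios share the few reads above, and the RNA signals beneath them were 187.3, 203.6, 368.5 and 319.1 with STM2457 and 47.6, 61.1, 93.3 and 84.1 with DMSO. The authors' deposited table, whose RNA means cover replicates 1 to 3, gives GNB3 an efficiency of 0.0529 with STM2457 and 0.108 with DMSO, and a log2 change of -1.02 without an error. That change rests on the 7 reads with STM2457 and the 4 reads with DMSO given above.

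GNB4 stood at the other end of the family. Its efficiency was 3.03 with STM2457 and 2.72 with DMSO, above 98.3% of genes with STM2457 and above 97.5% with DMSO. GNB1 had an efficiency of 1.35 with STM2457 and 1.18 with DMSO. GNB2 had an efficiency of 1.30 with STM2457 and 1.12 with DMSO. GNB5 had an efficiency of 1.37 with STM2457 and 1.41 with DMSO. These 3 genes lay somewhat above the median gene in both arms.

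The change of efficiency did not pass limma's interaction test for any of the 4 fitted genes, as for nearly all genes, since 1.04% of 10906 passed. It was 0.20 for GNB1 (SE 0.10, limma adjusted p = 0.554), 0.21 for GNB2 (SE 0.11, limma adjusted p = 0.581), 0.16 for GNB4 (SE 0.25, limma adjusted p = 0.937) and -0.03 for GNB5 (SE 0.24, limma adjusted p = 0.992). The table's RNA signal fell further than the gene counts for GNB1, with log2 ratios of -0.19 and -0.11, and for GNB2, with -0.15 and -0.08. Over 12163 genes the table's log2 ratio was lower than that of the gene counts by a median of -0.07, and its part in the efficiency values was not tested.

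**Figure D4:**
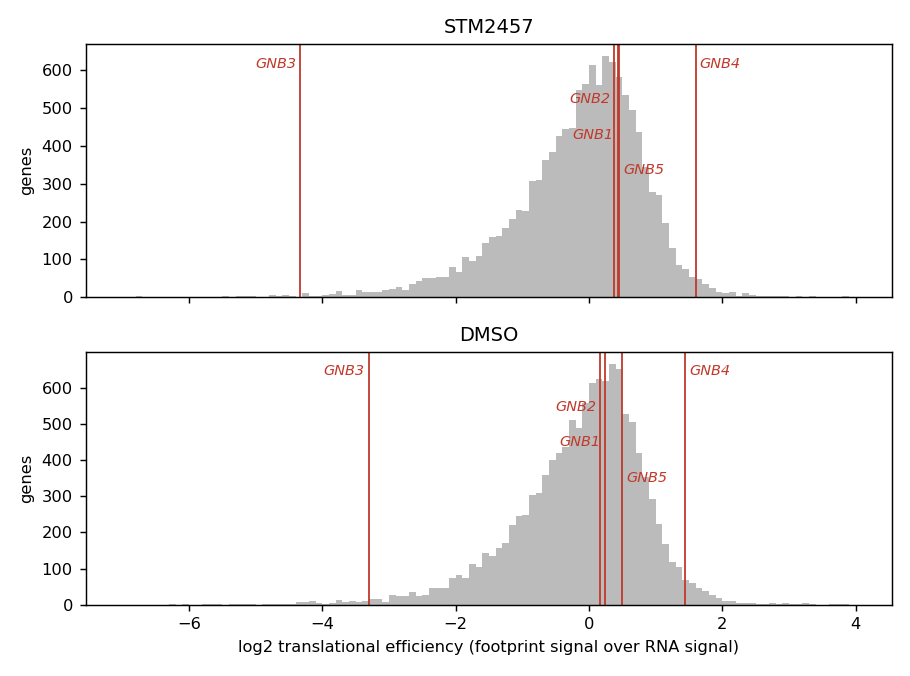
Number of genes (vertical axis) by log2 translational efficiency (horizontal axis) for the 12224 genes of the table, with STM2457 above and DMSO below. Red lines mark the 5 beta subunit genes; GNB3 lies far left of the bulk in both arms, on 7 reads with STM2457 and 4 with DMSO, and GNB4 lies near its right edge.

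P3H3 and CDCA3, the genes directly on either side of GNB3, had log2 fold changes of 0.01 and -0.14. In the RefSeq order on chromosome 12, GPR162 and P3H3 precede GNB3, and CDCA3, USP5, TPI1 and SPSB2 follow it. CDCA3, which encodes an F-box-like protein of mitotic entry, overlaps the annotated span of GNB3. The libraries were strand-specific per the labels, but the strand setting of the counting is not given in the sources used here, so a sharing of reads between GNB3 and CDCA3 cannot be settled. CDCA3 had 50.2, 50.2, 50.7 and 50.4 CPM with STM2457, against 54.9, 54.3, 56.9 and 55.9 CPM with DMSO. Its level difference between the replicate sets was 0.03 and did not pass (edgeR adjusted p = 0.602). It fell with a log2 fold change of -0.14 (SE 0.03, edgeR adjusted p = 0.00112). P3H3, a collagen prolyl hydroxylase gene on the other side, had 27.7, 26.2, 35.6 and 30.9 CPM with STM2457, against 27.9, 29.1, 30.5 and 31.6 CPM with DMSO. The arms of P3H3 overlapped and its log2 fold change was 0.01 (SE 0.08, edgeR adjusted p = 0.911). In both arms P3H3 was higher in replicates 3 and 4, with a level difference of 0.21 (SE 0.05, edgeR adjusted p = 0.0105). That call was lost without STM2457 replicate 2 or with spike-in scaling, where the adjusted p reached up to 0.0677.

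Of 10 tested neighbours, 1 rose and 4 fell, where 47.8% of all tested genes passed, and their median log2 fold change was -0.05, where that of all tested genes was 0.0025. SPSB2, which encodes a substrate receptor of a ubiquitin ligase, had 7.82, 6.47, 7.90 and 7.33 CPM with STM2457, against 3.09, 3.45, 3.01 and 2.86 CPM with DMSO. Its log2 fold change was 1.25 (SE 0.09, edgeR adjusted p = 9.8e-08), and its level difference between the replicate sets was -0.002. SPSB2 footprints, with 34 and 46 reads in STM2457 libraries and 21 and 3 reads in DMSO libraries, rose by 2.24 on the log2 scale (limma adjusted p = 0.000364). Without DMSO replicate 2, which holds the 3 reads, the footprint change of SPSB2 was 1.16 and did not pass, and the call was also lost without a trend of the spread. GPR162 fell by 0.55, DSTNP2 by 0.59 and ENO2, a glycolytic enzyme, by 0.33 on the log2 scale, with edgeR adjusted p of 0.0125, 0.000411 and 0.00179. The GPR162 call was lost in replicates 3 and 4 alone (highest edgeR adjusted p = 0.14). USP5, TPI1, LRRC23 and ATN1 had log2 fold changes of 0.00, 0.04, -0.08 and -0.01 and did not pass. With spike-in scaling 1 neighbour was higher and 8 were lower, where 2159 of all 17807 tested genes were higher and 8383 lower.

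**Figure D5:**
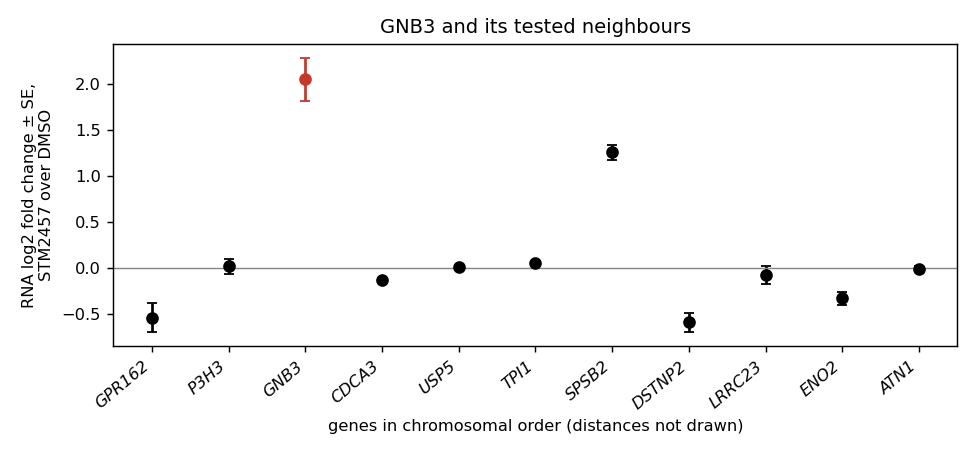
RNA log2 fold change (STM2457 over DMSO, vertical axis) with bars of 1 SE for GNB3 in red and its 10 tested neighbours in black, in chromosomal order without distances. GNB3 stands at 2.05 and SPSB2 at 1.25, while P3H3 and CDCA3 on either side of GNB3 lie at 0.01 and -0.14.

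Alpha subunits bind the nucleotide and carry the specificity for receptors and effectors. Of 16 alpha subunit genes 12 were tested, and 6 rose and 2 fell, where 47.8% of all tested genes passed, 26.2% as higher and 21.6% as lower. Their median log2 fold change was 0.09. With spike-in scaling 4 were higher and 4 lower, where 2159 of all 17807 tested genes were higher and 8383 lower. The median of the alpha subunit genes was then -0.10, where that of all tested genes was -0.19. GNA13 had 252.4, 252.8, 229.0 and 241.9 CPM with STM2457, against 135.1, 130.6, 126.1 and 126.2 CPM with DMSO. The arms were far apart and its RNA rose by 0.91 on the log2 scale (SE 0.04, edgeR adjusted p = 6.0e-10). Its footprints rose alongside, by 1.08 (SE 0.12, limma adjusted p = 3.8e-10).

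GNAZ, an alpha subunit of the inhibitory class, had 46.9, 45.0, 44.6 and 45.1 CPM with STM2457, against 27.6, 27.2, 26.2 and 27.0 CPM with DMSO, and rose by 0.75 on the log2 scale (SE 0.03, edgeR adjusted p = 1.6e-09). Its footprint reads were 22 and 17 with STM2457, against 32 and 28 with DMSO, and they did not pass the footprint test (log2 fold change -0.66, limma adjusted p = 0.254). Its efficiency fell by 1.29 (SE 0.21, limma adjusted p = 0.00427), where 0.807% of all tested genes were called as lower in efficiency. The GNAZ call on efficiency was lost without Ribo-seq DMSO replicate 2 or STM2457 replicate 2, with a highest adjusted p of 0.084. GNA12, the closest relative of GNA13, rose by 0.59 and GNA11, of the class that activates phospholipase C beta, by 0.34 in RNA. The footprint log2 fold changes of GNA12 and GNA11 were -0.18 and 0.34, and neither passed (limma adjusted p = 0.751 and 0.0521). GNAI3, an inhibitory alpha subunit, fell by 0.25 in RNA.

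Gamma subunits anchor the beta subunit at the membrane through a lipid group. Of 12 genes 8 were tested, and 0 rose and 3 fell, against 26.2% and 21.6% of all tested genes. Their median log2 fold change was -0.08. With spike-in scaling 0 were higher and 6 lower, where 2159 of all 17807 tested genes were higher and 8383 lower. GNG7 fell by 0.23, GNG12 by 0.16 and GNG4 by 0.12 on the log2 scale, with edgeR adjusted p of 0.000714, 0.00493 and 0.0220. The GNG4 call was lost without DMSO replicate 4, without STM2457 replicate 2, without STM2457 replicate 4 and in either replicate set alone (highest edgeR adjusted p over all alternatives 0.084). Of the 7 gamma subunit genes in the footprint fit, 0 passed it, where 15.7% of the 10906 genes tested did.

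The partners that GNB5 binds in place of a gamma subunit were mostly low in these cells. Of 8 R7 RGS proteins and their anchors 5 were tested, 0 rose and 1 fell, against 26.2% and 21.6% of all tested genes. Their median log2 fold change was -0.16. RGS9, the R7 member that speeds the recovery of photoreceptors, had 17.2, 17.3, 18.5 and 17.2 CPM with STM2457, against 17.1, 17.0, 17.1 and 16.9 CPM with DMSO, and its log2 fold change of 0.04 did not pass (edgeR adjusted p = 0.435). RGS9BP, its membrane anchor, had 0.853, 0.694, 0.823 and 0.579 CPM with STM2457, against 1.09, 1.52, 1.42 and 1.36 CPM with DMSO, and fell by 0.87 (SE 0.16, edgeR adjusted p = 0.000580).

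Beta subunits are folded by the cytosolic chaperonin CCT with phosducin-like protein, encoded by PDCL, which hands the propeller on to its gamma subunit, and RIC8 proteins do the same service for alpha subunits. Of 14 genes in this folding route 12 were tested, and 2 rose and 5 fell, against 26.2% and 21.6% of all tested genes. Their median log2 fold change was -0.05. With spike-in scaling 2 were higher and 9 lower, where 2159 of all 17807 tested genes were higher and 8383 lower. PDCL had 58.0, 59.9, 58.2 and 58.5 CPM with STM2457, against 43.7, 44.5, 43.2 and 41.6 CPM with DMSO, and rose by 0.44 (SE 0.03, edgeR adjusted p = 1.1e-07). RIC8B, the chaperone of the stimulatory alpha class, rose by 0.56. The chaperonin subunits went the other way. CCT2 had 354.3, 363.6, 342.2 and 351.8 CPM with STM2457, against 427.5, 443.3, 429.7 and 420.3 CPM with DMSO, and fell by 0.29 (SE 0.03, edgeR adjusted p = 1.1e-06). CCT4 fell by 0.20, TCP1 by 0.18, CCT6A by 0.17 and CCT5 by 0.14, while CCT3, CCT7 and CCT8 did not pass.

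In footprints of the folding route, 2 of 12 genes rose and 4 fell, where 9.59% of all tested genes rose and 6.13% fell. RIC8B rose by 0.80 and PDCL by 0.36, and TCP1 fell by 0.34, CCT2 by 0.29, CCT4 by 0.27 and CCT5 by 0.22 on the log2 scale. The limma adjusted p of these 6 genes ran from 0.00137 for TCP1 to 0.0480 for CCT5. All 6 calls were lost in limma without a trend of the spread (RIC8B adjusted p = 0.058), and CCT5 was also lost with edgeR on recovered reads and with a replicate block. Without single Ribo-seq libraries RIC8B kept its call, while TCP1 was lost without DMSO replicate 2, and CCT2 without DMSO replicate 1 or 2. CCT4 was lost without STM2457 replicate 1 and without either DMSO library, and PDCL and CCT5 without any one of the 4 libraries.

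Of 29 effectors and regulators of the beta-gamma dimer 21 were tested, and 7 rose and 6 fell, against 26.2% and 21.6% of all tested genes. Their median log2 fold change was -0.03. With spike-in scaling 3 were higher and 13 lower, where 2159 of all 17807 tested genes were higher and 8383 lower. ADCY9, an adenylyl cyclase, rose by 0.58 and KCTD12, which desensitises GABA-B receptor signalling by binding the dimer, by 0.57, both in RNA. PIK3R5, the regulatory subunit of phosphoinositide 3-kinase gamma, rose by 0.45 (edgeR adjusted p = 0.0153), a call lost with spike-in scaling and in either replicate set alone. ADCY7, a cyclase that beta-gamma stimulates, fell by 0.44. The efficiency of ADCY9 fell by 0.68 (SE 0.14, limma adjusted p = 0.0235), and that call was lost without any one of the 4 Ribo-seq libraries (highest limma adjusted p = 0.20).

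Most of the genes that work beside GNB3 in cones were below the expression filter, with RGS9, given above, as the main exception. Of 16 cone phototransduction genes 4 passed the filter, 4 were at 0 in every library, and 0 rose and 2 fell, where 47.8% of all tested genes passed. Those were RGS9BP, given above, and SLC24A2, the cone sodium-calcium exchanger, which fell by 0.32 (edgeR adjusted p = 0.0273). The SLC24A2 call was lost with DESeq2, in either replicate set alone, and without any of DMSO replicates 1, 2 and 3 and STM2457 replicates 2 and 4. GNAT2, the alpha subunit that pairs with GNB3 in cones, averaged 0.310 CPM with STM2457 and 0.315 CPM with DMSO.

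GNB1L and RACK1 carry WD repeats related to those of beta subunits and are not part of G protein trimers. GNB1L, a cofactor in the folding of DNA damage kinases, rose by 0.59 in RNA (SE 0.05, edgeR adjusted p = 6.3e-07) and by 0.68 in footprints (SE 0.15, limma adjusted p = 0.000877), a footprint call lost without a trend of the spread. RACK1, a scaffold on the small ribosomal subunit, rose by 0.14 in RNA with TMM (SE 0.02, edgeR adjusted p = 5.3e-05) and stood at -0.06 with spike-in scaling, where it did not pass. Over the 103 genes of the other lists above, from alpha subunits to GNB3 neighbours, 69 were tested, 16 rose and 22 fell, where 47.8% of all tested genes passed, 26.2% as higher and 21.6% as lower. Their median log2 fold change was -0.03.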

How the data were processed

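The deposited RNA-seq files hold raw counts per gene with ERCC spike-ins. The deposited table holds a normalized signal per library, the authors' efficiency ratio and its log2 change. Per the submitters' processing notes, STAR 2.7.3a, Subread 2.0.3 and DESeq2 were among the tools, on GRCh38.p12. Gene names and order come from RefSeq on another patch, so no coordinates are given. Counts were tested with edgeR 4.0.16 (quasi-likelihood, TMM, filterByExpr, Benjamini-Hochberg over 17807 genes, threshold 0.05), without spike-ins. Footprint signals in the table were whole multiples of 1 read in 100% of values within 0.1, so reads were recovered. Footprints and efficiency (assay by treatment, a weight per assay) were tested with limma 3.58.1 on log2(signal + 1), with a trend of the spread, in 10906 genes with a mean of at least 10 reads. That scale understates changes of low genes. edgeR on recovered reads called 1719 genes. Fits were tested on simulated data.

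Members and gene lists were chosen with earlier results of these data known. Named by rule were, per list, up to 4 called genes with a mean of at least 1 CPM and the largest log2 fold change, every tested neighbour, and the 8 genes most like GNB3. CCT5, CCT6A, RGS9, RGS9BP, GNAT2, RACK1, GNB1L and genes given as not passing were chosen after their values were seen. Alternatives were DESeq2 1.42.0, ERCC scaling, other filters, pseudocounts and spreads, either replicate set, a replicate block and leaving out each library.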

Additional observations from a re-analysis of the deposited data

How the results depend on the processing

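The GNB3 RNA log2 fold change stayed between 1.84 and 2.18 without each library in turn and was 1.86 with ERCC scaling, 2.03 with DESeq2. GNB1 RNA kept its call in every alternative run. GNB2 RNA ranged from -0.099 to -0.071 without each library, losing its call in 3 of these, and was -0.092 and lost it in replicates 3 and 4 only. ERCC scaling gave -0.21 for GNB4 and -0.20 for GNB5, both then called. GNB4 RNA was 0.0044 in replicates 1 and 2 only and ranged from -0.048 to 0.014 without each library, GNB5 RNA from -0.018 to 0.0066. The difference of fold change between the replicate sets turned sign in GNB2 with DESeq2 (0.0012) and with no filter (0.014), and in GNB5 with no filter (0.011). Without each library it ranged from -0.043 to 0.054 in GNB2 and from -0.050 to 0.051 in GNB5. The level difference between the sets was -0.0071 in GNB2 with ERCC scaling and ranged from -0.011 to 0.023 in GNB2 and from -0.023 to 0.0023 in GNB5 without each library; for GNB4 it was -0.15 and not called with ERCC scaling. Without each library, footprint changes ranged from -0.058 to 0.068 in GNB1, from -0.061 to 0.17 in GNB2 and from -0.37 to 0.078 in GNB5. The efficiency change of GNB5 was 0.20 without Ribo-seq DMSO replicate 1 and 0.018 without RNA-seq STM2457 replicate 1. None of these sign changes passed a test; the cause was not tested.

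The 1715 footprint calls over all genes became 232 without a trend of the spread in limma, and the 113 efficiency calls became 70 without it, 825 with one shared spread and 522 with the edgeR interaction. Without each library in turn there were 1004 to 1464 footprint calls and 37 to 129 efficiency calls. The 38 RNA calls in the related lists ranged from 32 to 39 without each library. The set-by-treatment test called 0 genes, 2 with DESeq2, 6 with ERCC scaling and 22 with no filter. The alternatives without a trend, and those for the level difference between the sets, were chosen after seeing the data.

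The labels number the replicates in both arms, but same-numbered libraries deviated together only weakly. Their correlations were 0.151, 0.227, 0.148 and 0.0763 in RNA-seq and 0.0064 in Ribo-seq, where the 2 libraries of an arm mirror each other. Not every RNA-seq library correlated best with its own number, so the numbers were not taken as pairs. Across the arms, RNA-seq correlations ran from 0.0763 to 0.275 within a replicate set and from -0.256 to -0.085 between the sets. The main RNA fit has no term for the set, so this spread enters its error. The SE of GNB3 was 0.23 in that fit and 0.06 with a replicate block. With a replicate block 9542 genes were called in RNA, against 8511 without it, and the RNA log2 fold changes were -0.11 for GNB1, -0.08 for GNB2, 2.04 for GNB3, -0.02 for GNB4 and -0.01 for GNB5. The block changed no call on a beta subunit gene, and it gave 43 calls in the related lists.

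Depth limits GNB3 footprints, with 11 reads in all, and 2 Ribo-seq libraries per arm limit every footprint and efficiency test.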
